A study of Mus musculus with 124 samples.

Results

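The genes described here are 40 genes of the cell division cycle, followed through T cells, B cells and monocytes sorted from the blood of young mice. They were taken by gene symbol from a table of raw read counts for 53465 genes, and all 40 were found. Of these, 15 belong to S phase and its licensing, 24 to mitosis, and Stmn1 (stathmin), a protein that destabilises microtubules, was kept apart from both. The choice used no measured value, although earlier results of these data were known when it was made.

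The series asks which RNA changes in blood are shared by offspring exposed to alcohol before birth and offspring of mothers with diabetes. All mice were of the outbred CD1 stock, and no mutant allele is named. In the alcohol model (EtOH), ethanol was injected into the peritoneum at 4.0 g/kg as a 25% solution in phosphate-buffered saline (PBS), on embryonic days 16 and 17. The labels give the controls only as PBS. The treatment label CBM is not explained. The protocol also describes a diabetes model in which the dams received streptozotocin (STZ), a toxin of insulin-producing cells, at 150 mg/kg, and no label joins the names CBM and STZ. Blood was drawn between postnatal days 35 and 40, and the 3 cell types were separated by flow cytometry. T cells came from 6 PBS, 9 EtOH and 12 CBM samples, B cells and monocytes each from 8 PBS, 8 EtOH and 13 CBM samples, in all 85 samples from 124 libraries. PBS and EtOH samples carry the label batch 1 and CBM samples batch 2, so the treatment CBM and the batch cannot be told apart. The labels do not say that samples came from separate animals, so p-values measure the spread between these samples, which may be partly technical.

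Cells copy their DNA once per cycle. Origins are licensed by Cdc6 and Cdt1, which load the helicase made of the Mcm2 to Mcm7 proteins, and Pcna then clamps the polymerase to DNA while Rrm1, Rrm2, Tyms and Tk1 supply nucleotides. Cyclin-dependent kinase Cdk1 with cyclins A and B then drives mitosis, in which kinases, kinesin motors and condensin build the spindle and pack and part the chromosomes. Genes of the first phase are typically switched on by E2F factors, and those of the second through a promoter element called CHR that the DREAM and MuvB complexes bind, often beside CCAAT boxes bound by NF-Y. Resting lymphocytes and monocytes in blood hardly divide, while activated T cells and immature thymocytes divide fast.

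The promoters of 8 members are shown because they carry these elements and because these genes give the largest contrasts or the exceptions described later. Each line holds the 150 bases before the transcription start given by RefSeq on GRCm38.p6, read 5′ to 3′ on the strand of the gene, and capitals mark, on either strand, CCAAT boxes, the E2F letters TTTCCCGC or TTTGGCGC, and the letters TTTGAA of the CHR element.
Mki67 (chr7:135716380-135716529, minus strand): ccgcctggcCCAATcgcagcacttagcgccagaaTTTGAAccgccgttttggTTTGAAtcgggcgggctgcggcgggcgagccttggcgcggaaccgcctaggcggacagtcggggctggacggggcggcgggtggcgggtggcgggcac
Top2a (chr11:99024190-99024339, minus strand): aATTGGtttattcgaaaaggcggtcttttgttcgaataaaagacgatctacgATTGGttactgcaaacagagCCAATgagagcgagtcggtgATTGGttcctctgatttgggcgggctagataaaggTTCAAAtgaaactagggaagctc
Cdk1 (chr10:69352913-69353062, minus strand): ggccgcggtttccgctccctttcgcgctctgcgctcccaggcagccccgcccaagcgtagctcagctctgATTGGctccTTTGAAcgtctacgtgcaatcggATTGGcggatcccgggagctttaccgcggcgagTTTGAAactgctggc
Kif23 (chr9:61946800-61946949, minus strand): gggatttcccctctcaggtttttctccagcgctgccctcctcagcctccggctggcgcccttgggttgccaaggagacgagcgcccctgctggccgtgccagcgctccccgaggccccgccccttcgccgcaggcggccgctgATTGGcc
Mcm5 (chr8:75109359-75109508, plus strand): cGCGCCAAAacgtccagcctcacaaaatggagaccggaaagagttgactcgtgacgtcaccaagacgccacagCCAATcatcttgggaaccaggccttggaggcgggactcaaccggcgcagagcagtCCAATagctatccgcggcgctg
Mcm6 (chr1:128359706-128359855, minus strand): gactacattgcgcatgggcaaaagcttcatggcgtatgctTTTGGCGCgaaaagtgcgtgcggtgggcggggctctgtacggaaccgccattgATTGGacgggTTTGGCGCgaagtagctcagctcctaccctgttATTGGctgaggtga
Cdc6 (chr11:98908001-98908150, plus strand): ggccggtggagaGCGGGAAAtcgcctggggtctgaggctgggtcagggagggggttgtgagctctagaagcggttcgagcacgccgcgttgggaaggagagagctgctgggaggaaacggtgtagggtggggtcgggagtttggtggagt
Cdt1 (chr8:122567865-122568014, plus strand): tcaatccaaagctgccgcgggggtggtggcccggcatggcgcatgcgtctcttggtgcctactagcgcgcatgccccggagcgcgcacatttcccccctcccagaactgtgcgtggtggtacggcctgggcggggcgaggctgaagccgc
Among the 33 members that had a promoter entry, in windows of 300 bases from 250 before to 50 after the start, the CHR letters stood in 14 of 20 mitotic members and in 1 of 13 S phase members, Mcm2, while 17.9% of 32851 mouse promoters held them. The E2F letters stood in 6 of 13 S phase members (Cdc6, Cdt1, Mcm3, Mcm5, Mcm6 and Mcm7) and in 1 of 20 mitotic members, Ncapg, against 1.56% of all promoters. CCAAT letters stood in 17 of 20 mitotic and 8 of 13 S phase members, against 37.4% of all. The CHR letters of Kif23 lay at positions 3 to 8 after its start and the E2F letters of Cdt1 at positions 33 to 40, outside the printed stretches. A match of letters is a description and does not show that a factor binds there.

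Total counts per sample ran from 0.328 to 8.28 M (M, 1000000 counts), with only JS23, an EtOH T cell sample, below 1 M. 39 samples had been sequenced as 2 libraries that differed by little more than sampling noise and were summed. By Xist, Y-linked genes and markers of the cell types, 15 samples went against a label, 13 in sex and 2 in cell type: the sample labelled PBS monocytes JS17 had T cell markers, and the sample labelled EtOH T cells JS29 had monocyte markers. The comparisons were therefore run with all samples and without these 15, which leaves as label-matched samples 4 PBS, 6 EtOH and 11 CBM of T cells, 5, 7 and 13 of B cells, and 5, 6 and 13 of monocytes. Cell type markers otherwise followed the labels: in the label-matched samples, T cell markers summed to 7140 to 14232 counts per 1000000 (CPM) in T cells and to 168 to 1100 CPM in the other cells, and monocyte markers to 25499 to 49023 CPM in monocytes. In 74 of the 85 samples every member had at least 1 count. CBM monocyte sample CBM11 lacked the most, 7 members, and a count of 0 there allows a level of up to 0.571 CPM (3 counts, counting error only).

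The summed level of the mitotic members spanned a wider range in T cells than in B cells or monocytes. The level of the 24 mitotic members ranged in T cells from 147 to 4499 CPM, a ratio of 30.5, in B cells from 105 to 352 CPM, a ratio of 3.35, and in monocytes from 179 to 701 CPM, a ratio of 3.91. The 3 highest T cell samples were EtOH sample JS35 with 4499 CPM, CBM sample CBM3 with 4079 CPM and CBM sample CBM12 with 2574 CPM. The S phase sum ran from 596 to 4067 CPM in T cells, a ratio of 6.82, with its lowest value in JS29, from 479 to 895 CPM in B cells, a ratio of 1.87, and from 186 to 1413 CPM in monocytes, a ratio of 7.598, with its highest value in JS17. More mitotic than S phase CPM was found in 4 of 27 T cell samples, in 0 of 29 B cell samples and in 9 of 29 monocyte samples. The monocyte sums include Kif23, which alone had a median of 60.5 CPM there and ran opposite to Mki67 (Spearman's rho -0.48). In PBS monocyte sample JS6, counted among the 9, Kif23 made up 207 of 273 mitotic CPM, beside 186 S phase CPM. The monocyte ratio of 3.91 therefore understates the range of the other mitotic members. The mean log2(CPM + 1) of the mitotic members gives each the same weight. It ran from 1.892 in JS6 to 4.758 in EtOH sample JS49 in monocytes. In B cells it ran from 2.022 in PBS sample JS10 to 3.723 in CBM sample CBM8, a narrower range. In bulk RNA, fewer dividing cells and less RNA per dividing cell cannot be told apart.

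**Figure D1:**
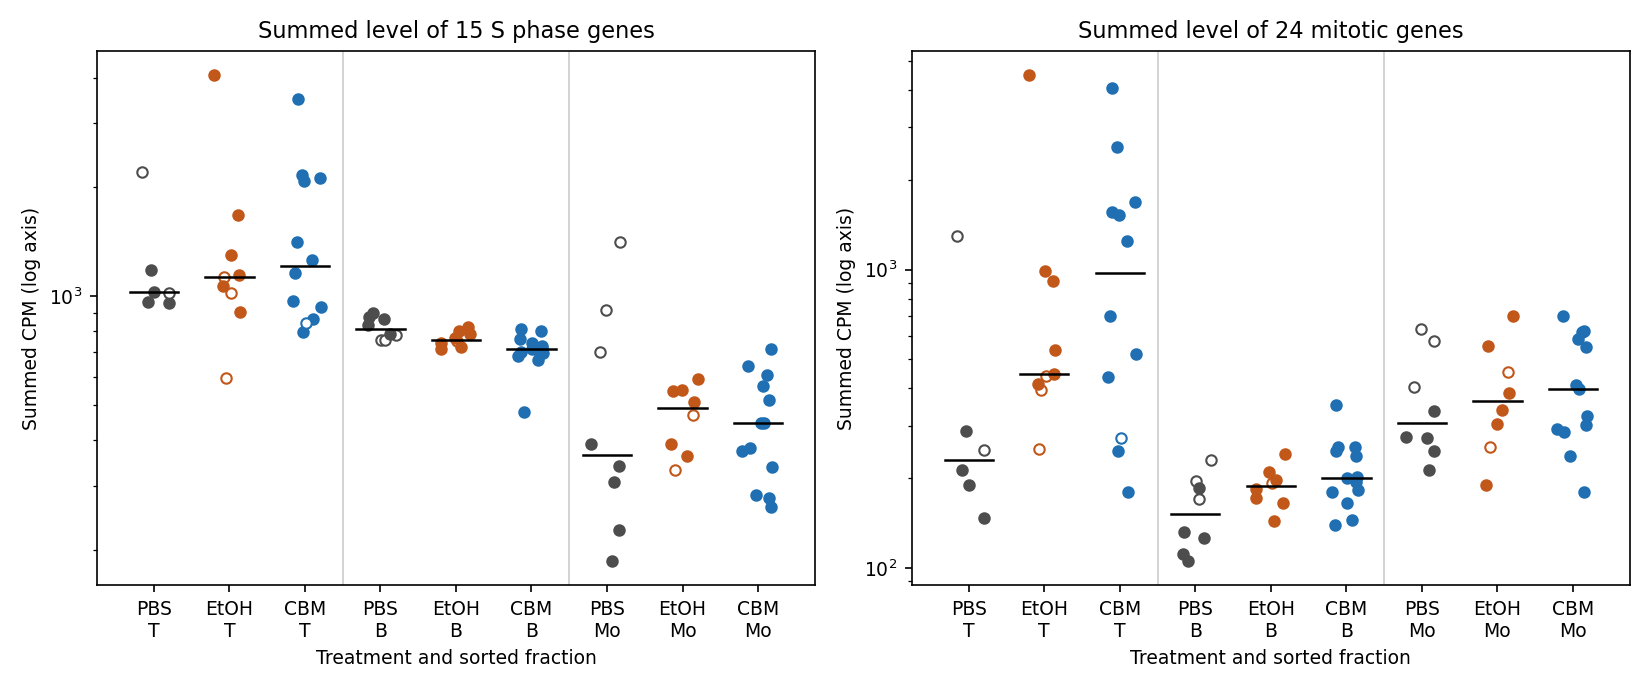
Summed CPM of the 15 S phase members and the 24 mitotic members in each sample (log axis), by cell type and treatment; hollow points are samples that go against a label and black bars are medians. The mitotic sum spans its widest range in T cells, with EtOH sample JS35 at 4499 CPM, while B cells stay between 105 and 352 CPM.

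Per kilobase of exon, the helicase genes Mcm6 and Mcm4 and the clamp gene Pcna stood highest in T cells and the large centromere gene Cenpf lowest. The medians over T cell samples were 49.04 CPM per kb for Mcm6, 42.9 for Mcm4, 42.3 for Pcna and 0.639 for Cenpf. In B cells the licensing factor gene Cdt1 led with 33.6 CPM per kb, and in monocytes Pcna led with 23.1 CPM per kb. Kif23, whose kinesin bundles microtubules at the cell's midline in cytokinesis, had 7.65 CPM per kb in monocytes, 4.45 in T cells and 1.73 in B cells.

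**Figure D2:**
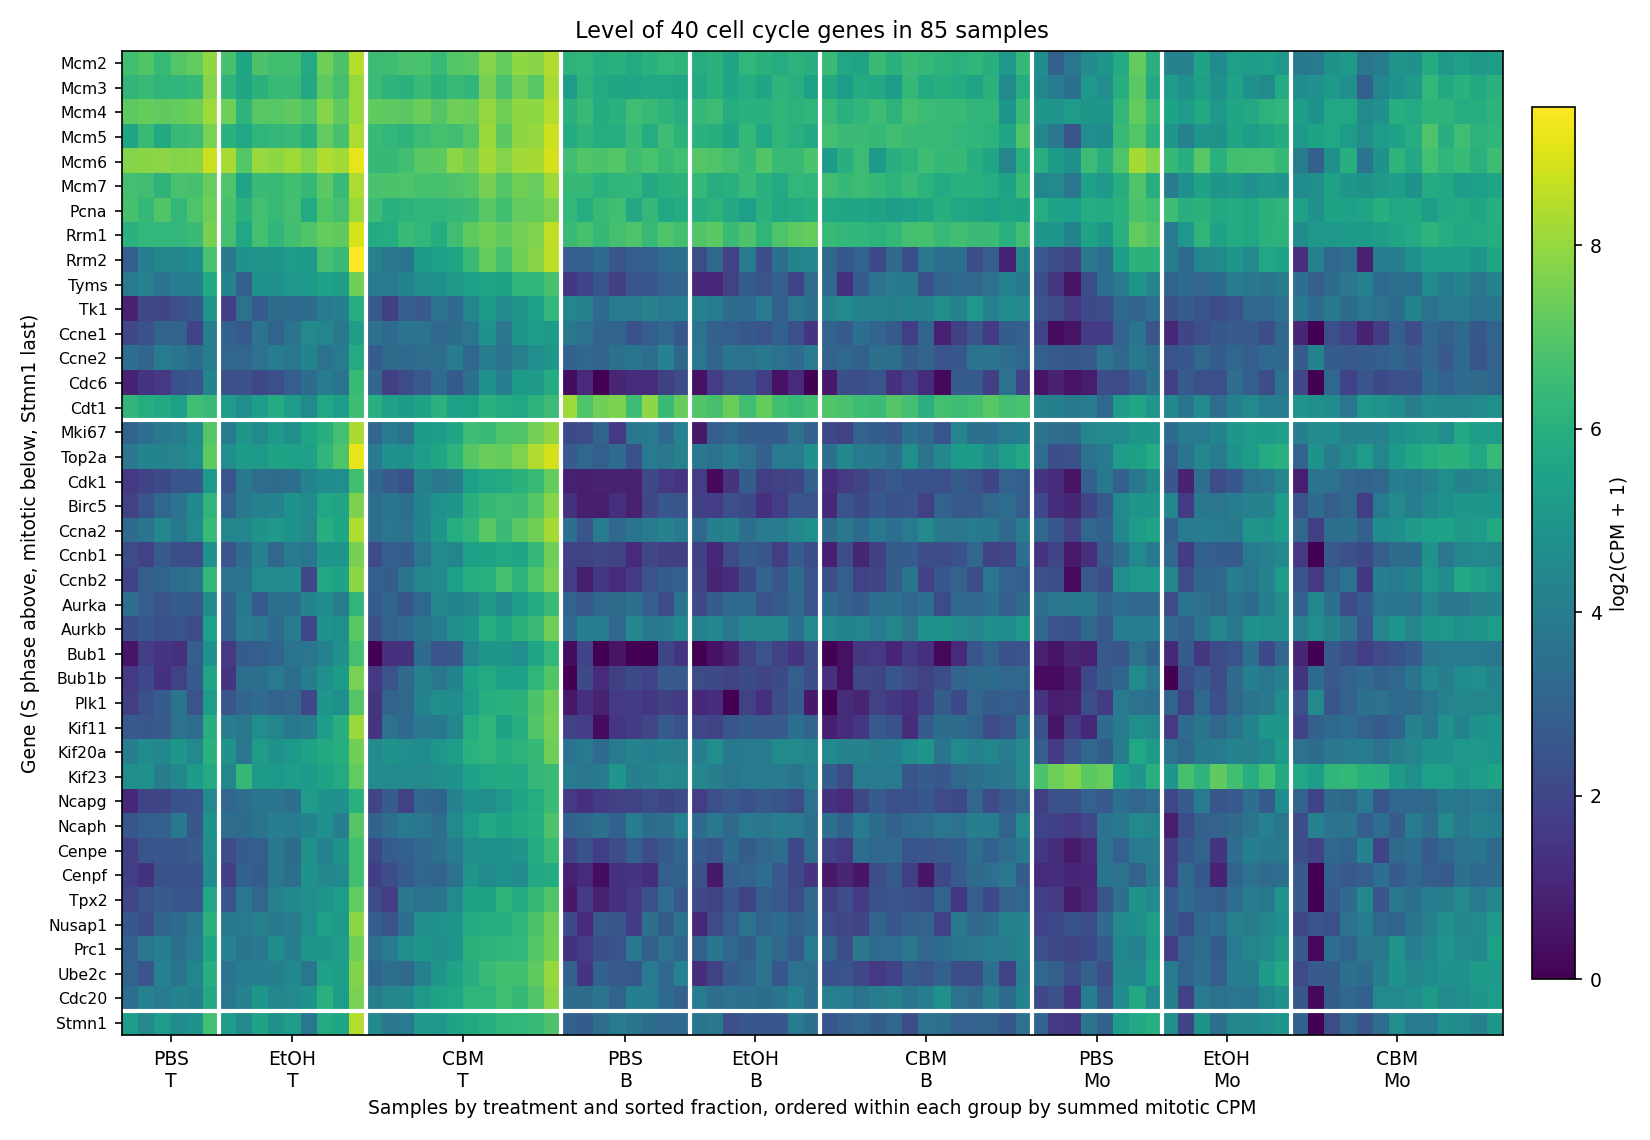
Level of each of the 40 members (vertical, in order of role) in each of the 85 samples (horizontal, grouped by cell type and treatment), as log2(CPM + 1) in colour. The mitotic members brighten together in single T cell samples such as JS35 and CBM3, where their summed levels were 4499 and 4079 CPM.

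In EtOH and CBM samples T cells were above B cells in most members. By edgeR's quasi-likelihood test with Benjamini-Hochberg adjustment over all genes tested, in CBM samples 13 of 15 S phase members and 23 of 24 mitotic members were higher in T cells and 1, Cdt1, was lower, while 42.7% of all genes differed in either direction. In EtOH samples 11 of 15 and 22 of 24 were higher and Cdt1 was lower (32.1% of all genes differed), and in PBS samples 8 of 14 and 11 of 23 were higher and Cdt1 was lower (44.4%). In label-matched samples, the PBS count was 6 S phase and 8 mitotic members higher and 3 and 2 lower (40.2% of all genes called, 20.3% lower), the EtOH count 11 and 23 higher and 1 lower (37.1%), and the CBM count 13 and 24 higher and 1 lower (43.1%). Whether this difference depended on the treatment was tested as an interaction, and edgeR called 0 members with all samples. In label-matched samples it called 3 members for CBM against PBS, Tk1, Ccne1 and Ube2c (0.712% of all genes), and 0 for EtOH (0.0447%). For Mki67, the gene of the proliferation marker Ki-67, the T minus B difference on the log2 scale was 1.75 in PBS, 3.44 in EtOH and 3.23 in CBM. Its level in B cells was 2.05, 7.90 and 17.3 CPM (lowest, median and highest of 8 PBS samples), 0.575, 6.22 and 10.6 CPM in EtOH and 2.71, 8.35 and 18.8 CPM in CBM. Stmn1 was higher by 2.79 in CBM T cells than in CBM B cells, and the helicase subunit genes Mcm6 and Mcm4 by 1.19 and 1.16 in PBS T cells than in PBS B cells.

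In CBM samples monocytes lay between the lymphocytes in most mitotic members and below T cells in most S phase members. Against monocytes, CBM T cells had 13 of 15 S phase and 20 of 24 mitotic members higher and 0 lower by edgeR (57.2% of all genes differed, and 13 and 21 were higher in label-matched samples, with 55.8% of all genes), and EtOH T cells had 10 and 2 higher and 1 mitotic member lower (45.1%, or 11, 7 and 1 in label-matched samples, with 49%). PBS T cells had 4 and 0 higher and 1 mitotic member lower (43.9% of all genes called, 20.3% higher), which in label-matched samples became 10 and 2 higher and 4 mitotic members lower (56.1%). In CBM and EtOH samples B cells had fewer mitotic transcripts than monocytes. In CBM 18 of 24 members were lower and 0 higher (55.4% of all genes differed, 29% lower). In EtOH 18 of 23 were lower (60.3%, 31.1% lower), and in PBS 10 of 20 (51.1%, 26.5% lower). In label-matched samples 16 of 23 were lower in EtOH (57.3% of all genes differed, 29.7% lower). In label-matched PBS samples 4 of 17 were lower and 1 higher. There 59.8% of all genes were called and 30.6% were lower, so the share of lower members lies below the background. No CBM sample of these cell types went against a label, so the CBM counts stand for both sets. With all samples, S phase members split between B cells and monocytes. In CBM 4 were higher and 3 lower in B cells (26.4% and 29% of all genes). In EtOH it was 4 and 4 (29.3% and 31.1%), and in PBS 2 and 1 (24.6% and 26.5%). Label-matched PBS samples, without JS17, showed no split, with 10 higher and 0 lower (29.2% and 30.6% of all genes).

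Cdt1, highest in B cells, and Kif23, highest in monocytes, are given in full. Cdt1 had its highest level in B cells, with 64.0, 100 and 133 CPM (lowest, median, highest) in CBM samples, and in CBM monocytes 12.4, 23.5 and 32.8 CPM. The B cell and monocyte groups did not overlap, and the difference was 1.73 ± 0.13 (log2, SE; edgeR adjusted p = 4.1e-12). CBM T cells lay lower than B cells by 0.91 ± 0.14. Kif23 was highest in PBS monocytes, with 29.97, 125 and 207 CPM (n = 8), where the lowest value is that of JS17. T cells were below monocytes by 2.41 ± 0.50 in PBS (edgeR adjusted p = 0.0018) and by 1.14 in EtOH (adjusted p = 0.017), while in CBM the difference of -0.49 ± 0.24 missed the threshold (adjusted p = 0.077). B cells were below monocytes by 3.01, 2.86 and 2.68 in PBS, EtOH and CBM for Kif23. These Kif23 differences are from fits of all samples. Their EtOH T cells include JS29, with monocyte markers, and their PBS monocytes include JS17, with T cell markers.

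**Figure D3:**
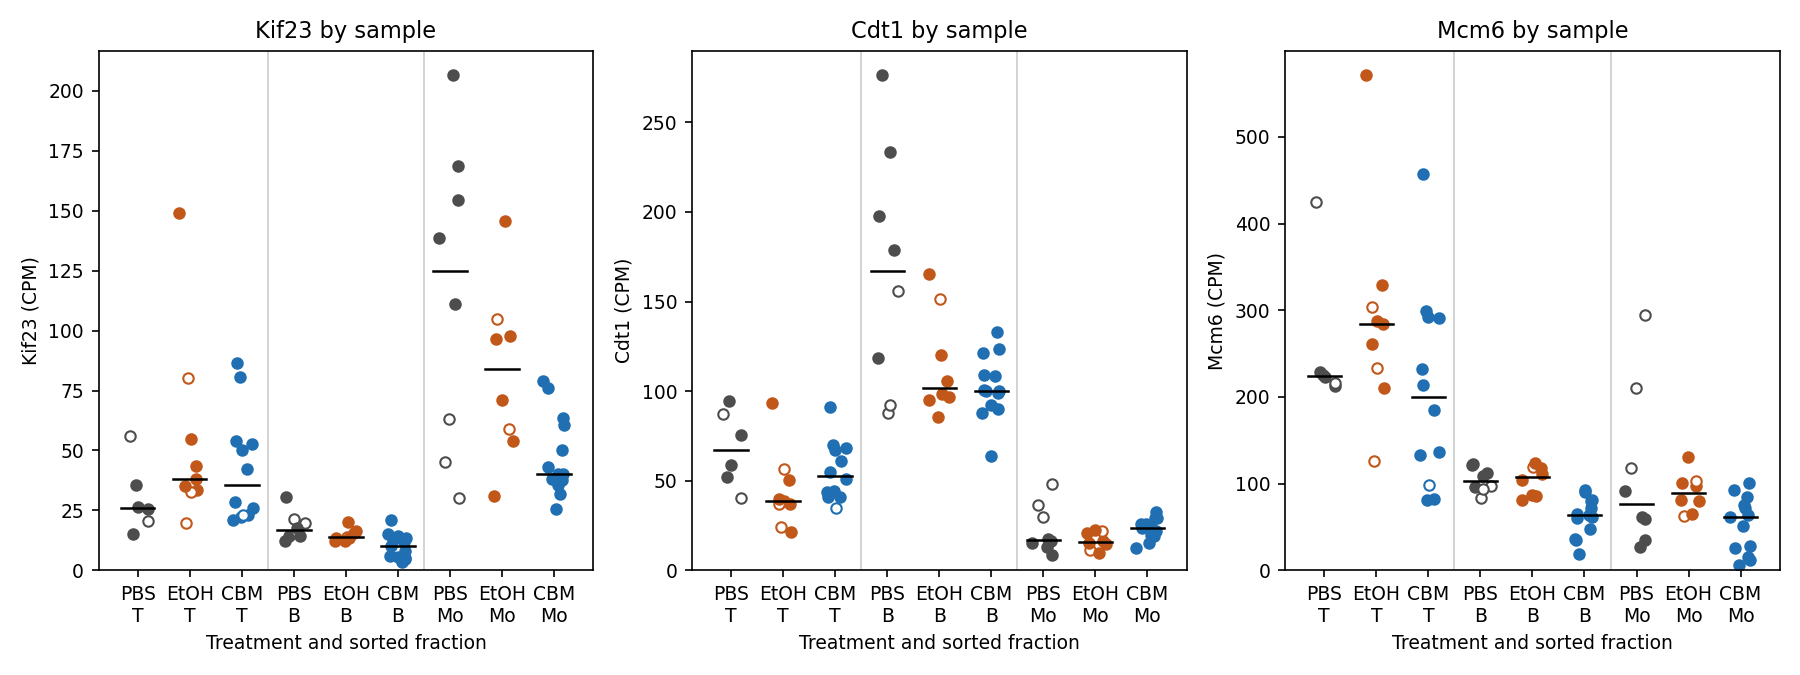
CPM of Kif23, Cdt1 and Mcm6 (vertical) in each sample by cell type and treatment (horizontal); hollow points are samples that go against a label and black bars are medians. Kif23 is highest in PBS monocytes (median 125 CPM) and Cdt1 in PBS B cells (median 167 CPM), and all 13 CBM B cell samples of Mcm6 lie at or below 92.4 CPM.

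In T cells, EtOH samples had higher mean levels of mitotic genes than PBS samples, but with all samples no member passed the test. The summed mitotic level was 147, 231 and 1298 CPM (lowest, median, highest of 6) in PBS T cells and 251, 446 and 4499 CPM (of 9) in EtOH T cells, and the groups overlapped widely. The highest PBS value is that of JS15, whose sex markers go against its label. The highest EtOH value is that of JS35, while the other EtOH samples had 251 to 988 CPM. The EtOH group also includes JS29, which had monocyte markers. By edgeR 0 of 40 members and 0% of 12750 genes were called, with 1183 genes at an unadjusted p under 0.05. DESeq2 called 0 members and limma voom with sample weights 3. The median log2 difference was 1.10 over the mitotic members, all 24 of them positive, and 0.17 over the S phase members, beside 0.06 over all genes.

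In label-matched samples, Ncapg, a condensin subunit gene, was the only member called between EtOH and PBS T cells by edgeR. Its PBS levels were 2.86 CPM in JS1, 2.94 in JS4, 4.44 in JS7 and 1.10 in JS12, and its EtOH levels were 10.4, 27.1 and 65.1 CPM (lowest, median, highest of 6). The groups did not overlap, and the means were 2.83 ± 1.36 (SD, n = 4) and 29.6 ± 20.1 CPM (SD, n = 6). Ncapg rose by 2.78 ± 0.51 (log2, SE; edgeR adjusted p = 0.0225) and was above the PBS mean in 6 of 6 EtOH samples. That makes 1 of 24 mitotic and 0 of 15 S phase members higher, while 0.36% of all genes were higher. The count was 0 without any of PBS samples JS4, JS7 and JS12 or EtOH sample JS53, 2 without EtOH sample JS50, and 20 without EtOH sample JS35. Of those 20, 16 were mitotic members higher, 3 S phase members higher and 1 S phase member lower, and the median over all members was then 1.40. DESeq2 called 21 members and limma voom 23 on the full label-matched set, given here without the counts over all genes. Leaving out single samples gave 28 to 358 called genes over all genes tested by edgeR.

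The mitotic kinase gene Cdk1 and the cyclin E gene Ccne1, which acts at entry into S phase, came next. Cdk1 had 2.86, 3.33, 5.02 and 1.98 CPM in PBS samples JS1, JS4, JS7 and JS12, and 9.49, 21.1 and 97.9 CPM in EtOH (lowest, median, highest). These groups did not overlap, and the difference of 2.57 ± 0.64 missed the threshold (edgeR adjusted p = 0.0689). Ccne1 had 4.29, 7.45, 2.89 and 3.08 CPM in the same PBS samples and 11.4, 16.3 and 38.1 CPM in EtOH, again without overlap, with a difference of 1.71 ± 0.42 (adjusted p = 0.0696).

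For Mki67 the PBS levels were 10.0, 12.9, 22.95 and 7.04 CPM in JS1, JS4, JS7 and JS12, and the EtOH levels 22.5, 54.6 and 311 CPM. The groups touched, and the difference was 2.09 ± 0.66 (edgeR adjusted p = 0.126). Top2a, the topoisomerase that untangles sister chromatids, had 18.6, 18.2, 24.1 and 12.8 CPM in the PBS samples and 34.4, 59.3 and 588 CPM in EtOH, with no overlap and a difference of 2.31 ± 0.82 (adjusted p = 0.163). Of the nucleotide genes, Tyms differed by 1.64 (adjusted p = 0.145), and the helicase gene Mcm5 by 0.60. Cdt1 went the other way, by -0.78 (adjusted p = 0.204), with 58.6, 52.3, 94.7 and 75.5 CPM in PBS and 21.3, 39.2 and 93.3 CPM in EtOH, so the groups overlapped. In all, 15 of 24 mitotic and 5 of 15 S phase members had every EtOH sample above every PBS sample, as had 3.92% of all genes tested, and 1.37% of genes were called, 0.36% as higher. The median difference over the mitotic members was 2.32, over the S phase members 0.56 and over all genes -0.00.

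Markers of other cells were compared beside this difference. In label-matched samples, 10 markers of effector T cells summed to 586 to 927 CPM in PBS T cells and 327 to 1659 CPM in EtOH T cells, 7 markers of natural killer cells to 175 to 305 and 106 to 491 CPM, and 14 monocyte markers to 408 to 770 and 361 to 850 CPM. In each list at least 1 count of every marker was found in both groups. By edgeR no marker of these 3 lists was called. The 14 B cell markers summed to 106 to 2839 CPM in PBS, where JS1 was the highest, and to 102 to 338 CPM in EtOH. The part of these markers in the difference was not tested.

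In B cells the licensing gene Cdt1 was lower in EtOH than in PBS among label-matched samples. With all samples 0 members and 0% of 11756 genes were called by edgeR, 904 genes having an unadjusted p under 0.05; DESeq2 and limma voom also called 0 members. Of the members, 14 of 15 S phase and 18 of 24 mitotic ones passed the filter on low counts there (14 and 22 in label-matched samples), while in T cells and monocytes all 39 of both roles did. In label-matched samples, Cdt1 had 118, 179, 233, 277 and 198 CPM in PBS samples JS2, JS5, JS8, JS10 and JS13, and 85.8, 98.2 and 165 CPM in EtOH (lowest, median, highest of 7). The groups overlapped, since JS2 lay among the EtOH samples. Cdt1 fell by 0.93 on the log2 scale (SE 0.23, edgeR adjusted p = 0.0350), while 4.62% of all genes were called, 2.95% as lower and 1.67% as higher. Pcna lay next to the threshold with a difference of -0.56 (adjusted p = 0.0551), from 58.0, 82.9, 78.8, 76.9 and 94.4 CPM in the PBS samples. With any single sample left out the count was 0, except 2 without JS2 and 3 without EtOH sample JS30. The median difference over mitotic members was 0.45 and over S phase members -0.08, beside 0.01 over all genes.

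In monocytes no member passed between EtOH and PBS in either set of samples. With all samples 0 of 40 members and 0% of 12438 genes were called by edgeR (411 genes at an unadjusted p under 0.05), and DESeq2 and limma voom called 0 members. In label-matched samples 0 members and 0.104% of 12551 genes were called, 0.0239% as higher and 0.0797% as lower (1643 genes at an unadjusted p under 0.05), although all 15 S phase and 22 of 24 mitotic members had a positive difference, with medians of 0.87 and 1.60 beside 0.02 over all genes. The summed mitotic level was then 275, 273, 213, 246 and 335 CPM in PBS samples JS3, JS6, JS9, JS11 and JS14, and 190, 362 and 700 CPM in 6 EtOH samples, so the groups overlapped. Birc5, whose product survivin belongs to the chromosomal passenger complex, came nearest, at 2.77 ± 0.49 (adjusted p = 0.0505), and Stmn1 differed by 2.05 (adjusted p = 0.0910) from 11.7, 1.85, 7.54, 2.05 and 6.78 CPM in these PBS samples to 10.1, 24.8 and 31.8 CPM in EtOH. Kif23, which is part of the mitotic sums and made up 207 of the 273 CPM in JS6, had the opposite sign, -1.14 ± 0.35 (adjusted p = 0.185). The count was 4 without PBS sample JS3, 2 without EtOH sample JS52 and 1 without EtOH sample JS31.

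The PBS monocytes that go against a label had levels of other cells' markers far from the rest. JS17 had a T cell marker sum of 12894 CPM and a monocyte sum of 513 CPM, and JS19 and JS22 had natural killer sums of 2874 and 2174 CPM, while the other 5 PBS samples ranged from 103 to 776 CPM. Among label-matched samples, T cell markers summed to 262 to 692 CPM in PBS and 500 to 1100 CPM in EtOH monocytes, and effector T cell markers to 245 to 1160 and 362 to 1257 CPM. All 14 tested T cell markers had a positive difference, with a median of 0.98, and 0 were called. The 5 markers of neutrophil precursors summed to 2.05 to 28.3 CPM in PBS and 4.69 to 458 CPM in EtOH monocytes, with 458 CPM in JS49 and 305 CPM in JS37, whose mitotic sums of 700 and 556 CPM were the highest of these EtOH samples. Their part in the members' differences was not tested.

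The comparison of CBM with PBS uses the same PBS samples as that of EtOH, so both move together with any error in them, and it also compares batch 2 with batch 1. In T cells with all samples, 7 of 40 members rose in CBM and none fell: the mitotic genes Cdc20, Ccnb1, Prc1, Cdk1, Ncapg and Plk1, and Ccne1. Across all genes 23.1% were higher and 45.2% changed in either direction, so a count of 7 lies below the background. Cdk1 had 1.98, 3.99 and 32.4 CPM in PBS and 4.27, 29.2 and 152 CPM in CBM (lowest, median, highest), and rose by 2.22 ± 0.85 (edgeR adjusted p = 0.0391) with overlap. Cdc20, which activates the anaphase-promoting complex, rose by 1.53 ± 0.55 (adjusted p = 0.0304). Mki67 with 1.30 (adjusted p = 0.182) and Top2a with 1.76 (adjusted p = 0.0735) did not pass. The count was 0 without any of PBS samples JS7 and JS12 and CBM12, 1 without any of PBS samples JS1, JS4 and JS20, 12 or 13 without CBM2 or CBM10, and 28 without PBS sample JS15.

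In label-matched samples, 29 members were called in T cells: 23 of 24 mitotic and 5 of 15 S phase members rose in CBM and Cdt1 fell, while 23.2% of all genes were higher and 41.9% changed. Cdk1 had 5.77, 41.1 and 152 CPM in 11 CBM samples, all above the 4 PBS samples named above, and rose by 3.46 ± 0.82 (edgeR adjusted p = 0.0041). Mki67 had 7.85, 85.4 and 242 CPM in CBM and rose by 2.48 ± 0.72 (adjusted p = 0.0131), and Top2a had 13.98, 128 and 461 CPM and rose by 2.72 ± 0.79 (adjusted p = 0.0128). The lowest CBM samples of both genes lay inside the PBS range, and 10 of 11 lay above the PBS mean. The mitotic kinase gene Plk1 and the spindle checkpoint gene Bub1b rose by 3.39 and 3.31, the cyclin gene Ccnb1 by 3.20, and of the S phase members Cdc6 by 2.66, Tk1 by 2.56, Rrm2 by 2.52, Ccne1 by 1.82 and Tyms by 1.36. Cdt1 fell by 0.55 on the log2 scale (adjusted p = 0.0468). Kif23 was the mitotic member that did not pass. The median difference was 2.71 over mitotic and 0.35 over S phase members, and 0.12 over all genes. Leaving out single samples gave 18 to 29 called members, the fewest without PBS sample JS4 (18) or JS12 (19).

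Markers of effector T cells spanned a wider range in CBM than in PBS T cells. In the label-matched samples their sum ran from 586 to 927 CPM in PBS T cells and from 557 to 6839 CPM in CBM T cells, so the PBS range lay within the CBM range. By edgeR 5 of 10 markers were higher and 1 lower, while 23.2% of all genes were higher and 18.7% lower. The natural killer sum ran from 107 to 1403 CPM in CBM, the monocyte sum from 519 to 3132 CPM with 5 of 13 tested markers higher, and the B cell sum from 57.8 to 141 CPM with 8 of 12 tested markers lower. In PBS the B cell sum was 2839 CPM in JS1 and 106 to 148 CPM in the other label-matched samples. With the marker scores of B cells and monocytes as terms in the fit of all samples, 3 S phase members were lower in CBM, no mitotic member was called, none of the 7 members named above kept its call, and the median over all members was -0.15. Their part in the result was not tested further.

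**Figure D4:**
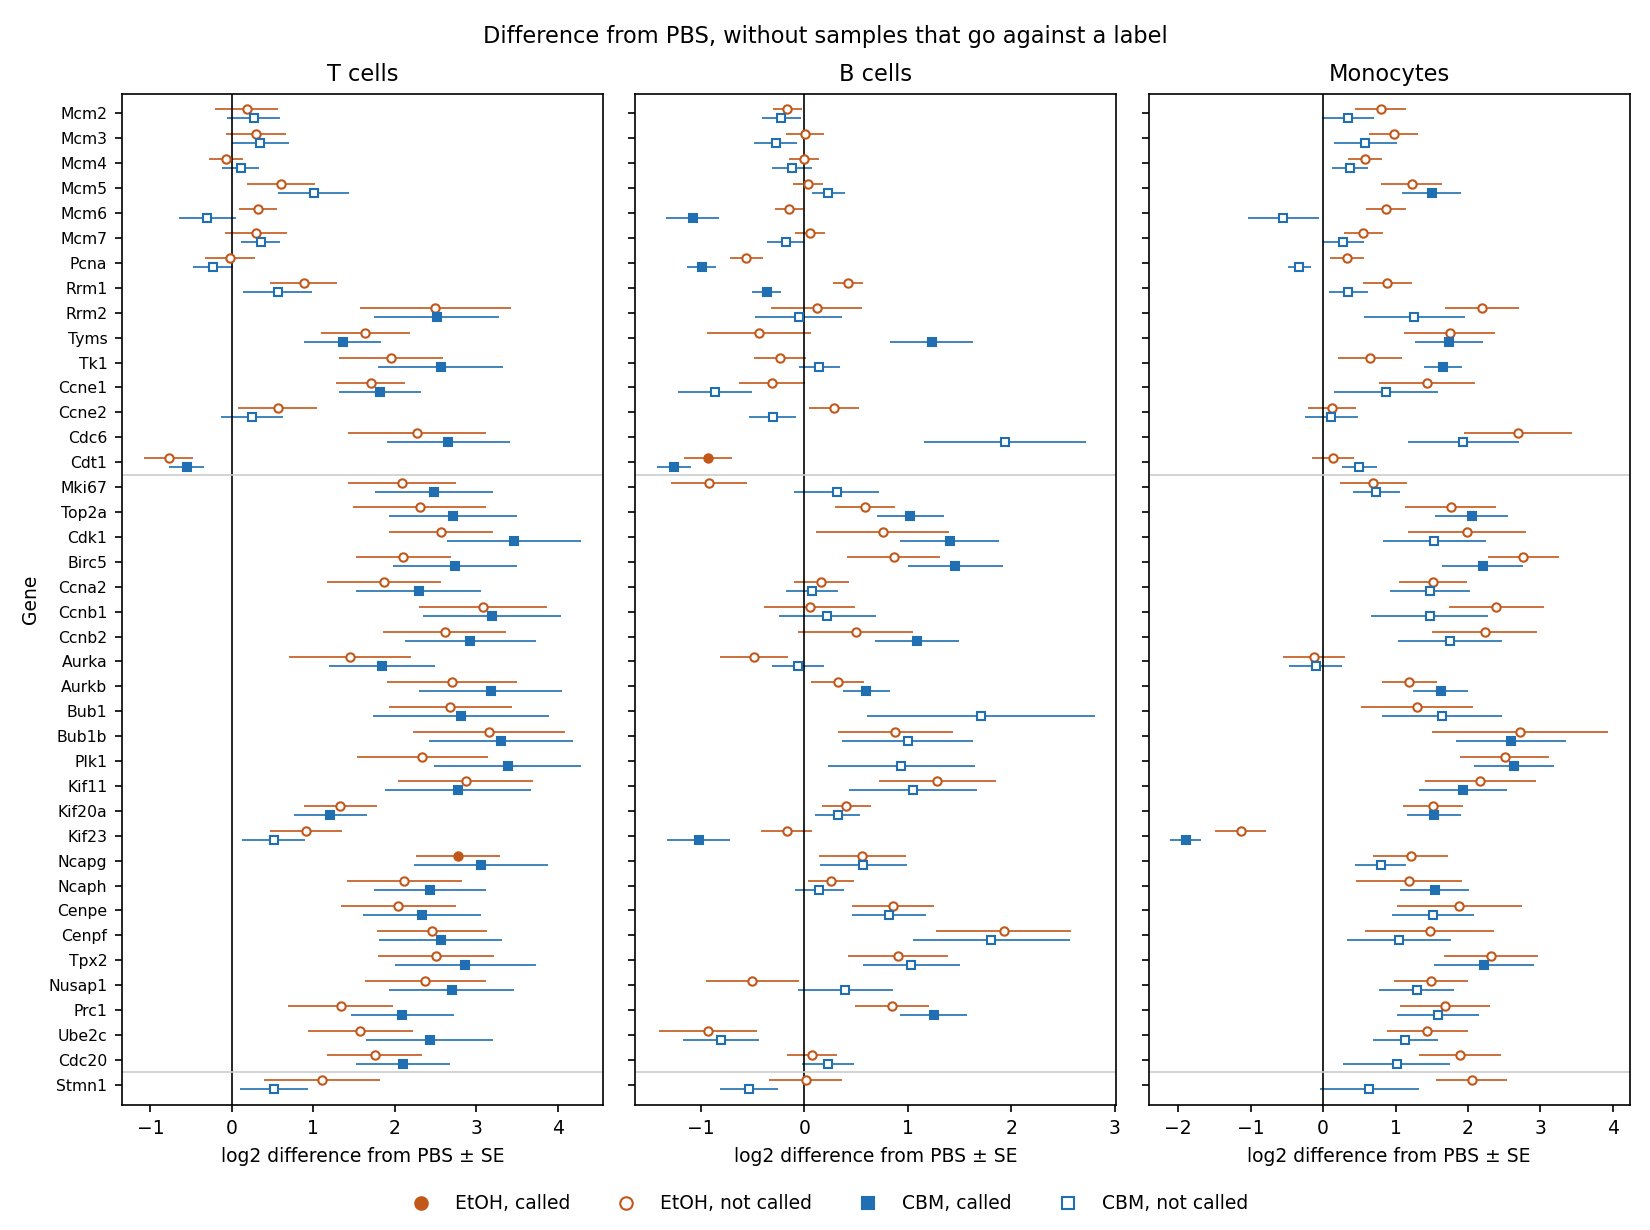
Log2 difference from PBS (horizontal) of each member (vertical) in T cells, B cells and monocytes, in label-matched samples, for EtOH (circles) and CBM (squares); filled symbols passed edgeR's test at an adjusted p under 0.05. Ncapg (2.78) is the only filled EtOH circle in T cells and Cdt1 (-0.93) in B cells, while 29 CBM squares are filled in T cells.

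In B cells 4 S phase members fell and 1 rose in CBM against PBS, and 2 mitotic members fell and 2 rose. These 9 calls by edgeR with all samples stand beside 36.2% of all genes, 16.9% as higher and 19.4% as lower, so the members' share lies below the background. Pcna fell by 0.75, Cdt1 by 0.92, Mcm6 by 0.93 and Rrm1 by 0.43 among S phase members, Kif23 by 1.05 and the ubiquitin-conjugating enzyme gene Ube2c by 0.93 among mitotic ones, and Cdk1 rose by 1.38, Top2a by 1.00 and Tyms by 0.88. Mcm6 had 83.7, 103 and 123 CPM in 8 PBS samples and 19.3, 63.6 and 92.4 CPM in 13 CBM samples (adjusted p = 0.0013). Its groups overlapped, but all CBM samples lay below the PBS mean. Pcna had 49.01, 67.4 and 94.4 CPM in PBS and 38.83, 47.1 and 60.6 CPM in CBM (adjusted p = 0.0002), also with 13 of 13 CBM samples below the PBS mean. In label-matched samples 12 members were called (42.9% of all genes): Ube2c was not among them, and Prc1 (1.25), Birc5 (1.46), Ccnb2 (1.09) and Aurkb (0.60) were added as higher. Mcm6 then did not overlap, with PBS levels of 122, 112, 108, 96.3 and 123 CPM. Single samples left out gave 7 to 11 called members with all samples and 8 to 15 with label-matched samples. Over all samples, mitochondrial genes took 0.776 to 1.18% of counts in PBS and 1.27 to 3.27% in CBM B cells, without overlap. The 6 progenitor markers summed to 9.12 to 26.2 CPM in PBS and 7.04 to 96.9 CPM in CBM, with 2 of 5 tested markers higher, and the 10 effector T cell markers to 14.1 to 63.9 and 13.6 to 86.3 CPM with 0 of 6 called. In both lists the highest PBS sum was that of JS18, whose sex markers go against its label. The part of these measures in the members' differences was not tested.

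In monocytes Kif23 and the thymidine kinase gene Tk1 moved in opposite directions between PBS and CBM. With all samples 5 members were called while 25.5% of all genes changed: Tk1 rose by 1.16 (edgeR adjusted p = 0.0009), the kinase gene Aurkb rose by 1.22 (adjusted p = 0.0051), Kif23 fell by 1.40 (adjusted p = 0.0021), Pcna fell by 0.50 (adjusted p = 0.0119) and Mcm6 fell by 1.21 (adjusted p = 0.0497). The Mcm6 and Pcna calls were not there in label-matched samples (adjusted p = 0.463 and 0.145). JS17, with T cell markers, had 294 CPM of Mcm6, and without it alone the Mcm6 difference was -0.81 and missed the threshold, as it did in 15 of the 21 fits that left out a sample. Kif23 in the PBS label-matched samples had 139, 207, 111, 168 and 155 CPM in JS3, JS6, JS9, JS11 and JS14, and in 13 CBM samples 25.4, 40.0 and 79.0 CPM. These groups did not overlap, and Kif23 fell by 1.90 on the log2 scale (SE 0.21), while EtOH monocytes, with 30.9, 83.8 and 146 CPM, lay between and overlapped both. Tk1 had 3.40, 2.06, 4.401, 3.65 and 3.77 CPM in the same PBS samples and 8.95, 11.7 and 18.3 CPM in CBM, again without overlap, and rose by 1.66. In this set 13 members were called (19.9% of all genes, 8.57% as higher and 11.4% as lower): 3 S phase and 9 mitotic members higher and Kif23 lower. Plk1 rose by 2.63 and Kif20a by 1.53, also without overlap, as did Mcm5, from at most 24.3 CPM in PBS to 24.7, 50.6 and 118 CPM, and Top2a rose by 2.05 from 10.9, 4.11, 9.85, 3.88 and 13.6 CPM in PBS. Single samples left out gave 4 to 7 called members with all samples and 8 to 20 with label-matched samples, the fewest without JS6 and the most without JS14 or CBM11.

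Markers of other cells and RNA measures were set beside the monocyte difference too. In label-matched samples, T cell markers summed to 262 to 692 CPM in PBS and 168 to 1061 CPM in CBM monocytes, natural killer markers to 103 to 776 and 242 to 1127 CPM, effector T cell markers to 245 to 1160 and 457 to 3835 CPM, and neutrophil markers to 10526 to 22939 and 5628 to 65503 CPM. By edgeR 1 of 15 T cell and 6 of 14 B cell markers were lower, and 0 natural killer and effector markers were called. Mitochondrial genes took 0.408 to 0.508% of counts in PBS monocytes and 0.419 to 4.11% in CBM monocytes, the highest in CBM11. With the marker scores of T and B cells as terms in the fit of all samples, 2 members were called, Tk1 higher and Kif23 lower. Their part in the members' differences was not tested further.

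Whether a treatment difference depended on the cell type was tested by an interaction term. These fits treated samples of different cell types as independent, also CBM samples that share a number. With all samples 0 members were called by edgeR for either treatment and any pair of cell types, with 0 to 9 members at an unadjusted p under 0.05. The 9 were for CBM in T against B cells, beside 1940 of 18909 genes. The 0 was for EtOH in B cells against monocytes, beside 369 of 14298 genes. In label-matched samples, the CBM minus PBS difference was larger in T cells than in B cells for Ube2c by 3.35, Ccne1 by 2.98 and Tk1 by 2.76 (0.712% of all genes were called), larger in T cells than in monocytes for Kif23 by 2.53 (1.01%), and smaller in B cells than in monocytes for Tk1 (-1.67) and Cdt1 (-1.87; 0.567%). For EtOH 0 members were called in that set. An unadjusted p under 0.05 was found there for 26 of 40 members in T against B cells, beside 981 of 15648 genes. For T cells against monocytes it was 8 members (1935 of 16432 genes), and for B cells against monocytes 19 (1500 of 14529 genes). For CBM it was 29, 6 and 21 members in the same order, beside 1894 of 20509, 2673 of 19651 and 3074 of 20269 genes.

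Other genes of the cycle, from lists beside the 40 members, were read in the same fits. In CBM against PBS T cells with all samples, 13 of 48 spindle and chromosome genes were higher and 1 lower, with a median of 1.39, and 4 of 32 replication genes were higher and 2 lower, with a median of 0.21, beside 0.04 over all genes, of which 23.1% were higher and 22.1% lower. Among them Nek2, a centrosome kinase, rose by 2.48, the kinase of cytokinesis Cit by 2.22 and the DNA polymerase gene Pole by 1.61. Rb1, which restrains E2F factors, fell by 1.29, E2f1 fell by 1.40 and E2f2 rose by 1.42. In label-matched samples 33 of 48 spindle genes and 11 of 32 replication genes were higher, with 0 and 2 lower (23.2% of all genes higher, 18.7% lower). In B cells 10 of 44 spindle genes were higher and 4 lower in CBM (16.9% and 19.4% of all genes), where the chromatin gene Hmgb2 fell by 2.03, Rb1 by 2.01 and the lamin gene Lmnb1 by 1.68. In monocytes 5 of 48 were higher and 2 lower (11.3% and 14.1% of all genes), Lmnb1 fell by 1.62 and Wee1, which holds Cdk1 inactive, by 2.05.

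Between EtOH and PBS none of these other lists had a called gene with all samples, in any cell type. In label-matched samples, Dbf4 fell by 1.27 and its kinase partner Cdc7 rose by 0.95 in T cells. In B cells the checkpoint kinase gene Chek2 rose by 1.18, and the flap endonuclease gene Fen1 fell by 0.78, Hmgb2 by 1.12 and Lmnb1 by 0.83, and in monocytes Lmnb1 fell by 1.65. Between cell types in CBM, 41 of 48 spindle genes were higher in T than in B cells and 0 lower, with a median of 1.54, while 23.3% of all genes were higher. The CDK inhibitor gene Cdkn1a was lower in lymphocytes than in monocytes, by 4.01 in T cells and 3.63 in B cells.

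Across the 27 T cell samples, the level of Mki67 ran with those of nearly all other members. Spearman's rho of the 39 other members with Mki67 had a median of 0.90 and ran from 0.27 for Cdt1 to 0.97 for Top2a, while the median over all genes was 0.05, and 21 members were among the 50 genes most like it. The non-members with the most similar pattern were Pclaf (0.97), Spc25 (0.95) and Hmmr, Ckap2l, Cks1b and Spc24 (0.94). In the 29 monocyte samples the median over 38 members was 0.72, from -0.48 for Kif23 to 0.90 for Bub1b, and in the 29 B cell samples it was 0.10 over 27 members, from -0.41 for Ccne1 to 0.65 for Nusap1. These values describe samples that share libraries, treatment and batch, and the low counts of many members in B cells limit the last of them.

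Mki67 also ran with effector T cell markers in T cells, and the relation passed the test within batch 2 and not within batch 1. Over the 27 T cell samples Pearson's r between log2(CPM + 1) of Mki67 and the mean log2(CPM + 1) of 10 effector markers was 0.638 and Spearman's rho 0.667 (two-sided permutation tests, adjusted over 117 relations, p = 0.0114 and 0.00731), and r was 0.567 without the 2 samples farthest from the median of the marker score. Within batch 1 (PBS and EtOH, 15 samples) r was 0.190 and rho 0.304 (permutation tests, adjusted p = 0.683 and 0.466), and within batch 2 (CBM, 12 samples) r was 0.952 and rho 0.951 (adjusted p = 0.00176 and 0.00117). The difference between the batches was not tested, and r was 0.948 in batch 2 without its 2 farthest samples. Batch 1 includes JS29, which had monocyte markers and the lowest effector score of the T cell samples, 3.92. It also includes JS35, which had the highest Mki67 level, 311 CPM, at an effector score of 4.54. Natural killer markers gave an r of 0.946 in batch 2 as well. Among CBM T cell samples, CBM3, CBM4, CBM7, CBM8 and CBM12 had the highest monocyte marker scores, 5.38 to 5.78. Their mitotic sums were 1245 to 4079 CPM, while CBM1 had a monocyte score of 3.98 and a mitotic sum of 1559 CPM. The relation is thus not shown to be particular to effector markers, and values for the other lists are not given. In B cells the pooled r with effector markers was 0.653 and rho 0.724 (adjusted p = 0.00663 and 0.00117), although these markers summed to no more than 86.3 CPM in any B cell sample, and within batches r was 0.580 and 0.741 (adjusted p = 0.115 and 0.0700). In monocytes r was 0.170 (adjusted p = 0.613). In label-matched samples the pooled r was 0.650 in T cells and 0.637 in B cells (adjusted over 39 relations, p = 0.0310 for each).

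**Figure D5:**
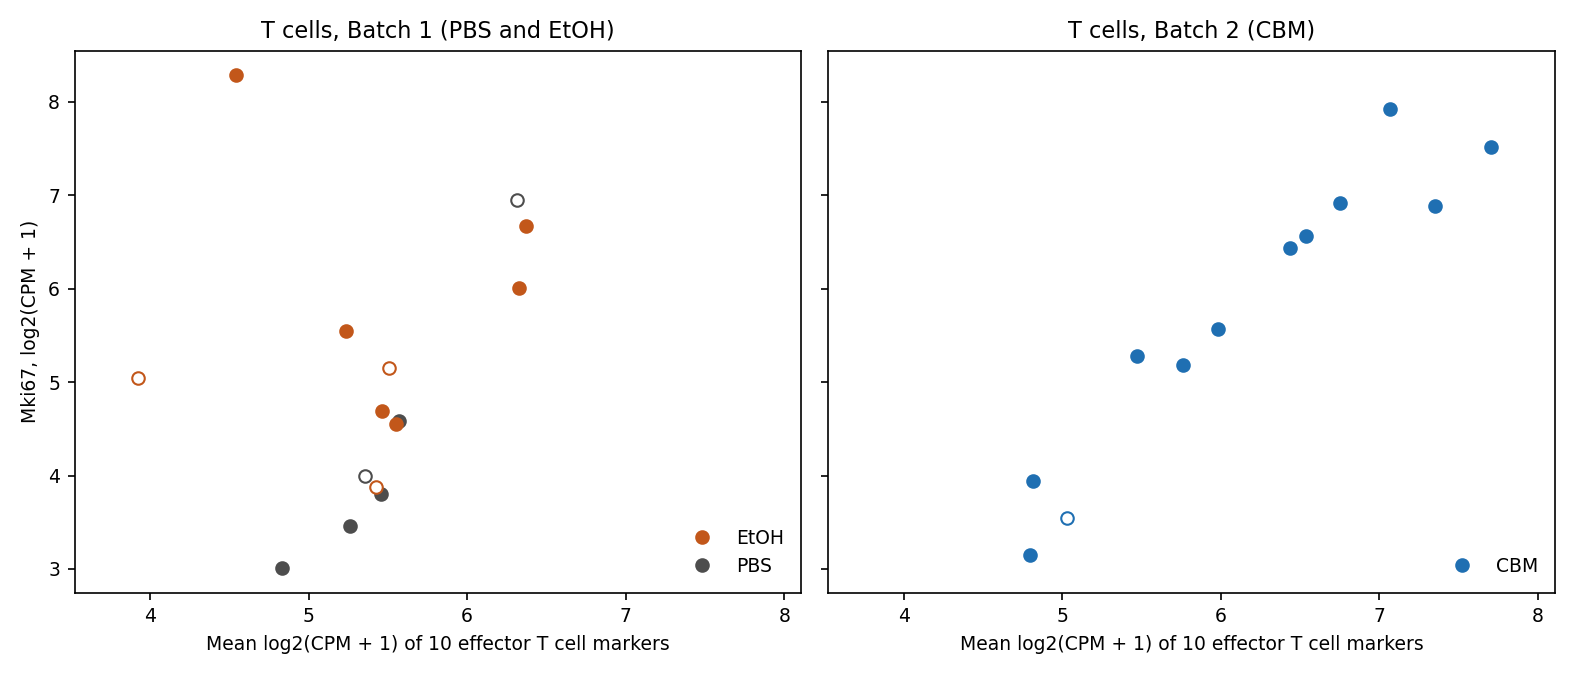
Level of Mki67 as log2(CPM + 1) (vertical) against the mean log2(CPM + 1) of 10 effector T cell markers (horizontal) in T cell samples of batch 1 (PBS and EtOH, 15 samples) and batch 2 (CBM, 12 samples); each point is a sample. Points rise along a line in batch 2 (r = 0.952) and scatter in batch 1 (r = 0.190), which includes JS29, a sample with monocyte markers.

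EtOH T cell sample JS35 had the highest level of many members and not of effector markers. It had 311 CPM of Mki67, 588 CPM of Top2a and 320 CPM of Mcm5, while the other 8 EtOH T cell samples had at most 101, 118 and 149 CPM. Its effector marker sum of 327 CPM and natural killer sum of 106 CPM were the lowest among the EtOH T cell label-matched samples, and its T cell marker sum of 14232 CPM was the highest of them. In CBM the sample with the highest mitotic sum, CBM3, also had the highest natural killer and monocyte sums of the CBM T cells, 1403 and 3132 CPM.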

How the data were processed

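RNA was sequenced from sorted blood T cells, B cells and monocytes. Per the labels' protocols, low-input cDNA (SMART-Seq v4) was turned into Nextera XT libraries and read in pairs on a NovaSeq. Demultiplexing used bcl2fastq and quality control FastQC, per the submitters' processing notes. BBDuk removed low-quality bases, HISAT2 2.1.0 aligned the reads to GRCm38 and HTSeq 0.11.2 counted them, per the same notes. The authors deposited the raw counts of each gene. GRCh38.78, the annotation named, belongs to a human build, yet 53360 of 53465 identifiers matched mouse GENCODE M21, whose exons gave the lengths. No strand is stated, so overlapping antisense genes cannot be told apart. 3 lines that name no gene were left out, and 26 symbols that had turned into dates were recovered by identifier.

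Libraries whose titles share a number (39 pairs) differed by a median chi-square of 1.22 per gene, against 22.58 for unrelated samples in the same group, and were summed, which left 85 samples. CPM are counts per 1000000. A sample labelled male went against its label with Xist above 10 CPM and a sum of Y-linked genes below 50 CPM, a sample labelled female with both reversed, and cell types were checked by their markers. The samples that went against neither are called label-matched.

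Within each cell type EtOH and CBM were compared with PBS, and within each treatment the cell types with each other, with sex as labelled as a term. The test was the quasi-likelihood test of edgeR 4.0.16 in R 4.3.3 after TMM scaling, on genes kept by filterByExpr (count minimum 10, total minimum 15). Called genes had a p under 0.05 after Benjamini-Hochberg adjustment over all genes tested. The fit was tested on simulated data. DESeq2 1.42.0, DESeq2 size factors in edgeR, voom of limma 3.58.1, other filters, no sex term, first libraries alone, marker scores as terms and samples left out served as alternatives. CBM samples of a number were checked for pairing by the correlation of their deviations from the group means, which exceeded 0.1 in 12 of 12 pairs of T and B cells (median 0.294), in 9 of 12 of T cells and monocytes and in 12 of 13 of B cells and monocytes. T and B cells of a number thus met the rule for pairing. The printed values come from the fit with sex and without the number as a block, and the block served as an alternative. The interaction fits had no block either, and PBS and EtOH samples were not checked for pairing. Named genes are Mki67, Top2a, Cdk1, Mcm5, Pcna, Tyms and Stmn1, all members called where there were 12 or fewer and otherwise the 4 with the lowest p per role and direction, the 3 with the lowest p where none was called, up to 4 called genes of each other list, and the 10 genes most like Mki67. Others, such as Kif23 and Cdt1 where they were not called, were named after their values were seen. Relations between Mki67 and marker scores used 100000 permutations. Other tools were Python 3.11.15, pandas 2.3.3, numpy 2.4.6, scipy 1.17.1 and matplotlib 3.10.9.

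The members, the lists and the comparisons were chosen with earlier results of these data known. A gene of the thymocyte list is not reported here.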

Additional observations from a re-analysis of the deposited data

Results flagged for a closer look

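9 measures (both summed levels and the CPM of 7 members) were checked for a sample far from the rest of its group, in the 6 PBS and EtOH groups of 6 to 9 samples. Of these 54 checks 18 found one, where chance gives about 1 in 20, and the measures are not independent, since JS35 and JS15 give all but 1 of the 18. EtOH T cell sample JS35 stood above the other 8 in every measure. Its S phase sum was 4067 CPM (others 596 to 1673) and its mitotic sum 4499 CPM (others 251 to 988). It had 311 CPM of Mki67 (13.7 to 101), 588 CPM of Top2a (25.1 to 118), 97.9 CPM of Cdk1 (4.47 to 24.1), 320 CPM of Mcm5 (50.5 to 149), 262 CPM of Pcna (54.9 to 119), 175 CPM of Tyms (6.74 to 42.97) and 335 CPM of Stmn1 (12.2 to 55.3).

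PBS T cell sample JS15, whose sex markers go against its label, stood far above the other 5 in the following measures. Its S phase sum was 2196 CPM (others 957 to 1182) and its mitotic sum 1298 CPM (others 147 to 287). It had 123 CPM of Mki67 (7.04 to 22.95), 141 CPM of Top2a (12.8 to 24.1), 32.4 CPM of Cdk1 (1.98 to 5.02), 194 CPM of Mcm5 (47.1 to 90.7), 53.2 CPM of Tyms (11.2 to 16.4) and 102 CPM of Stmn1 (21.1 to 38.7). EtOH B cell sample JS24 had 27.1 CPM of Top2a, while the other 7 had 6.81 to 15.04 CPM.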

How the results depend on the processing

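Among the members called in a comparison, or the 3 of lowest p where none was, no difference changed sign under an alternative, while the median over all members went to -0.15 with marker scores as terms (CBM against PBS, T cells). The count of called members moved by over 1.5 times in the following cases, and the cause was not tested. Counts over all genes are not set beside most of them. Where they are not, a shift in the members cannot be told from a shift over all genes. In label-matched samples it went from 7 to 29 (CBM against PBS, T cells), 5 to 13 (monocytes), 0 to 1 (EtOH against PBS, T cells and B cells), 5 to 17 (T cells against monocytes, PBS), and 0 to 3, 1 and 2 in the CBM interactions. With limma voom it was 25 (CBM, monocytes), 15 (CBM, B cells), 3 (EtOH, T cells), 14 and 17 (T cells against monocytes, PBS and CBM). DESeq2 gave 14 (CBM, T cells). With no filter on low counts it was 26 (CBM, T cells), 1 (EtOH, B cells), 21 (B cells against monocytes, PBS), 33 and 8 (T cells against B cells and monocytes, PBS). With marker scores as terms it was 3 S phase members, called as lower (CBM, T cells), and 2 (CBM, monocytes). In EtOH and PBS T cells of label-matched samples, the 1 member became 21 with DESeq2, 23 with voom and 20 without JS35, alternatives chosen after seeing the data.

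Leaving out single samples gave 0 to 28 members (CBM, T cells), 4 to 7 (CBM, monocytes), 7 to 11 (CBM, B cells) and 0 (EtOH, all cell types). Called genes over all genes then ranged from 5839 to 7222, 3011 to 3882 and 4421 to 6192 for CBM, in the same order. In label-matched samples leaving out single samples gave 18 to 29, 8 to 20 and 8 to 15 members for CBM, and 0 to 20, 0 to 4 and 0 to 3 for EtOH T cells, monocytes and B cells. Called genes over all genes then ranged from 4466 to 6884, 2056 to 3895 and 4986 to 7989 for CBM. For EtOH they ranged from 28 to 358, 0 to 121 and 0 to 1458.

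With the replicate block in place of the sex term, the CBM cell type comparisons called 36 (T against B cells), 29 (T cells against monocytes) and 25 (B cells against monocytes) members, and Mki67 between T cells and monocytes lost its call (0.58 on the log2 scale). Depth limits members of a few CPM, such as Cdk1 in B cells.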

Other observations

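Genes that mark immature thymocytes, chosen after values had been seen, were highest in EtOH T cell sample JS35. The recombinase gene Rag1 had 326 CPM there, Rag2 87.1 CPM, Dntt, the terminal transferase gene, 849 CPM, Ptcra, the gene of the pre-T-cell receptor alpha chain, 40.1 CPM, Arpp21 346 CPM and Ccr9 810 CPM. The medians over the 27 T cell samples were 0.471 CPM for Rag1 and Rag2, 5.25 for Dntt, 0.238 for Ptcra, 4.47 for Arpp21 and 69.7 for Ccr9. The next highest sample was CBM3 for Rag1 (22.6 CPM), Dntt (73.3 CPM) and Ptcra (2.29 CPM), and CBM3 also had the next highest mitotic sum. For Rag2 (18.3 CPM) and Arpp21 (33.5 CPM) it was JS23, whose mitotic sum was 537 CPM, and for Ccr9 it was CBM11 (114 CPM).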
